A study of Mus musculus with 2 samples.

Results

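The genes of ribosome biogenesis and of RNA polymerase I were examined in mouse ureter explants treated with an activator of WNT signaling. The list held 48 genes for nucleolar proteins, factors of ribosomal RNA processing and subunits and partners of RNA polymerase I, a program linked to the transcription factor MYC. Members were found by their gene name in the scanner data, which held for 47 genes with 71 probes among 29875 genes on the array. Utp4 was carried there under the older name Cirh1a and was matched by its accession only, so it was kept apart from all counts. All 71 probes passed the filter on dim probes, so no member was lost to it. A gene was represented by its brightest probe, and 28 members had 1 probe.

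Ureters of wildtype NMRI embryos of undetermined sex had been isolated at E12.5 and cultured for 18 h as explants, either with 10 µM BIO, an inhibitor of the kinase GSK3 that stabilizes beta-catenin, or with DMSO (2:1000) as control. Each RNA came from a pool of explants that contained the ureteric mesenchyme (UM), the ureteric epithelium (UE) and further cells of the organ, so fewer cells of a type and less RNA per cell cannot be told apart. BIO RNA and control RNA were hybridized together on each of 2 arrays, with the dyes exchanged between the arrays. The array pair (n = 2) is the only replication. The p-values and standard errors are moderated. They combine the difference between the 2 arrays with the spread over all probes tested, which weighs more (prior degrees of freedom 7.14). They cover these samples alone.

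Ribosomes are built in the nucleolus. RNA polymerase I transcribes a long precursor from the repeated ribosomal RNA genes. Guided by small nucleolar RNAs, box C/D particles methylate this precursor and box H/ACA particles convert uridines to pseudouridine. The small subunit processome then folds and cleaves the part that becomes the small subunit, while separate factors assemble the large subunit. Growing and dividing cells need this production line, and MYC is a well-known activator of many of its genes through the E-box CACGTG.

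Expression of most members was modestly higher with BIO. After 18 h, 17 of the 47 genes had risen (36.2%) and 0 had fallen, by limma with an adjusted p below 0.05, whereas among the 21574 genes tested 9.13% rose and 14.8% fell. The median log2 ratio of BIO over control was 0.30 for the members and -0.01 for all genes tested. On the single arrays the median of the members was 0.27 and 0.29. The genes that rose did so by log2 ratios of 0.36 to 0.80, that is 1.29-fold to 1.74-fold. The SD of the log2 ratio was 0.24 over the members and 0.42 over all genes tested.

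The direction was shared by most members. In 36 of 47 (76.6%) the ratio was above 0 on both arrays, against 34.7% of all genes tested, while 5 were below 0 on both and 6 had opposite signs (Ddx21, Nhp2, Nop10, Imp3, Pes1 and Noc3l). In the processed signals, 36 members had both BIO values above both control values (29.9% of all genes tested), among them each of the 17 that rose. The 30 genes that did not pass the test had ratios between -0.36 and 0.46, and 23 of them lay above 0. Without adjustment, 27 members passed limma's test at a p of 0.05 upwards and 1, Ubtf, downwards. The share of all genes that pass this looser limit was not worked out, so these counts have no background beside them. The highest upper end of a member's 95% interval was 1.05, for Gnl3.

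**Figure D1:**
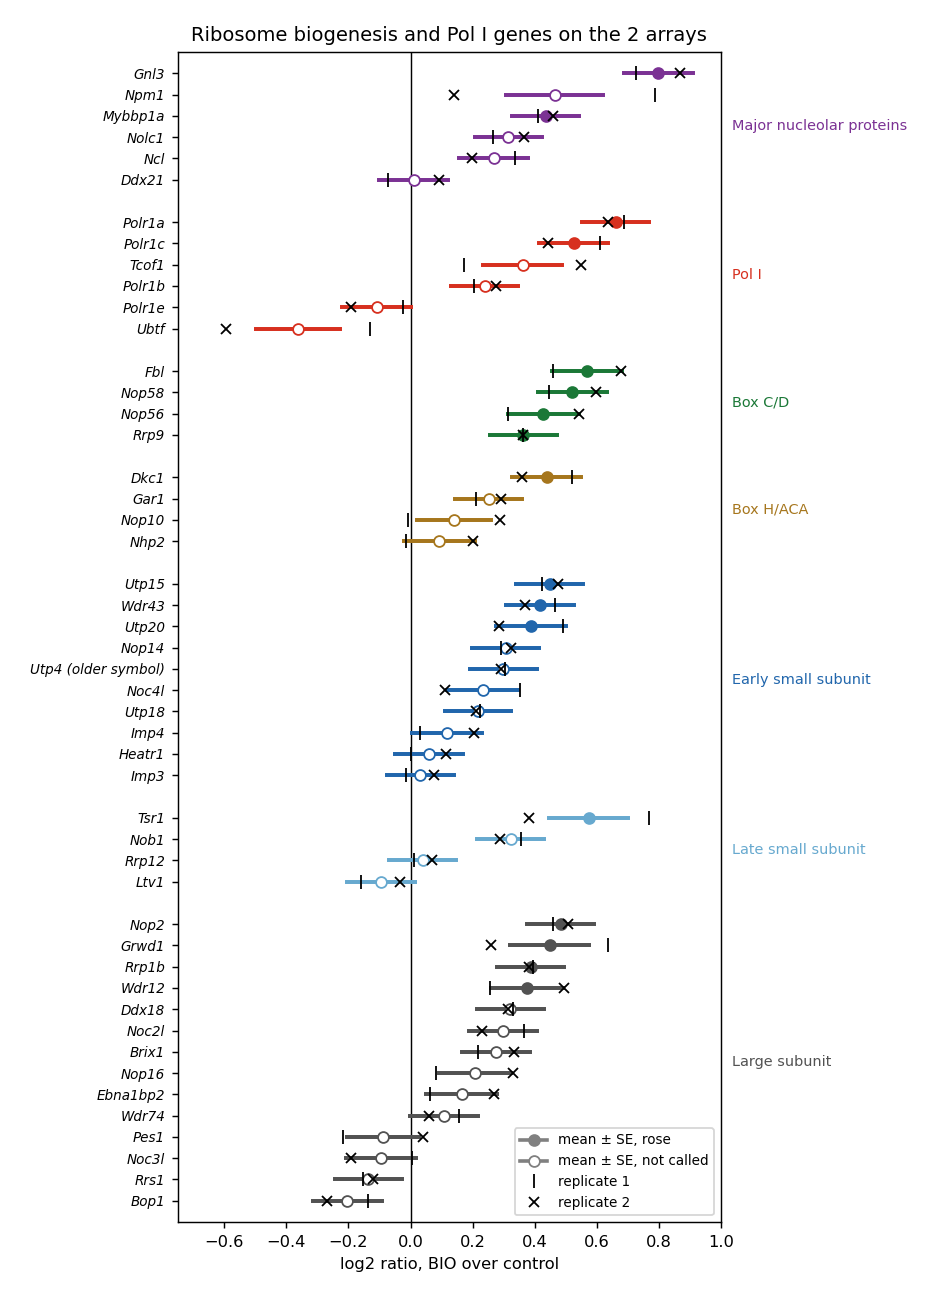
The log2 ratio of BIO over control is drawn for each of the 48 listed genes, grouped by role, with the mean and its standard error as a circle with a bar (filled where the gene rose) and the values of the 2 arrays as a tick and a cross. Most circles lie right of 0, Gnl3 is highest at 0.80, Ubtf lowest at -0.36, and the box C/D group is the one in which every circle is filled.

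After loess, the median absolute difference between the arrays was 0.140 over the members, and the standard error of a member's ratio lay between 0.108 and 0.156. With median centring in place of loess the arrays were further apart. The median difference was then 0.348, the median ratio of the members was 0.09 in replicate 1 and 0.44 in replicate 2, and 29 members were above 0 on both arrays. Pearson's r between the arrays was 0.801 across all probes tested, which are not independent replicates. The members were bright on the array, with a median intensity percentile of 76.4 among the genes tested and a lowest of 29.9. Of the 25 members in the brightest 25% of genes 8 rose (32%), against 8.01% of all genes in that class. Of the 22 members below it 9 rose (40.9%), against 9.51% of all genes there.

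**Figure D2:**
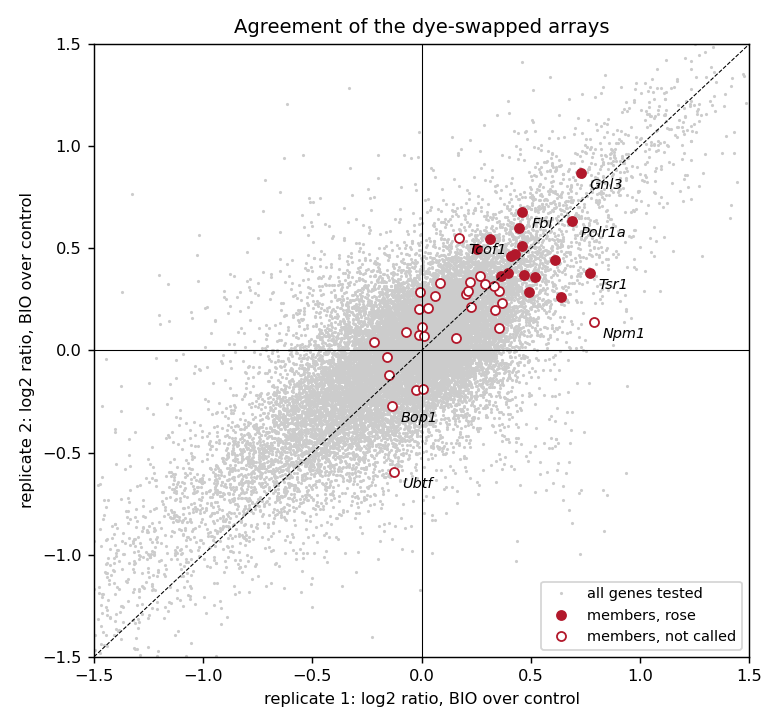
The log2 ratio of BIO over control in replicate 2 is plotted against that in replicate 1 for all genes tested (grey) and for the 47 members (red, filled where the gene rose), with a dashed line where the arrays are equal. The filled points lie in the upper right, Npm1 and Tsr1 lie below the line with the higher ratio in replicate 1, and Ubtf and Tcof1 deviate from it as well.

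**Figure D3:**
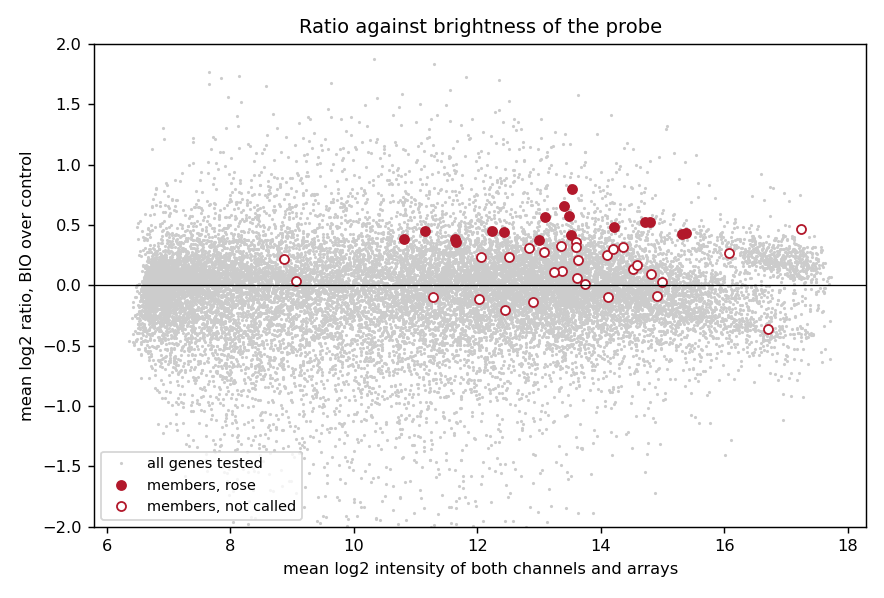
The mean log2 ratio of BIO over control is plotted against the mean log2 intensity of the probe for all genes tested (grey) and the 47 members (red, filled where the gene rose). The members occupy the middle and the bright side of the array, and those that rose are found in both.

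To see which sequence features the members share, promoters were taken from RefSeq (GRCm38.p6, 250 bases before to 50 bases after the start site), which covered 42 of the 48 listed genes. The E-box CACGTG, which reads the same on both strands, was present in 11 of these 42 genes (26.2%), whereas 2187 of all 27025 genes with a promoter held it (8.09%). The members were listed as a program linked to MYC, and the 27025 genes were not limited to those tested. The contrast is therefore a description and no test. It was found in 6 of 16 members that rose (37.5%), in 4 of 25 that were not called (16%) and in Utp4. This split rests on the calls. With the processed signals only 1 of the 6 E-box genes, Nop2, was among the members that rose, and with median centring 0 were. The letters CTTTGA, the core bound by TCF/LEF factors at WNT targets, were searched on both strands as well, and neither motif contains the other. They were present in 5 of the 42 genes (11.9%) and in 18.2% of all genes, and 0 of the 16 members that rose held them in this window. Such a match describes letters and not a bound site, and these promoters were not assayed here.

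Below are 4 of the 6 E-box promoters of genes that rose, and that of Utp18, a gene with an E-box that was not called. They are shown because the place of the E-box differs. Each runs 5′ to 3′ along the strand of the gene, and the capitals mark the E-box. In Nop2 (chr6:125131633-125131932, plus strand) its first base lay at position -60 from the start site, and in Utp18 (chr11:93885717-93886016, minus strand) at -20. In Wdr43 (chr17:71615965-71616264, plus strand) it lay at position 18 behind the start, in Tsr1 (chr11:74897830-74898129, plus strand) at 25 and in Mybbp1a (chr11:72441077-72441376, plus strand) at 41. The remaining E-box promoters of genes that rose were those of Grwd1 and Utp20, and Imp4, Ltv1 and Pes1 had an E-box without being called.
Nop2: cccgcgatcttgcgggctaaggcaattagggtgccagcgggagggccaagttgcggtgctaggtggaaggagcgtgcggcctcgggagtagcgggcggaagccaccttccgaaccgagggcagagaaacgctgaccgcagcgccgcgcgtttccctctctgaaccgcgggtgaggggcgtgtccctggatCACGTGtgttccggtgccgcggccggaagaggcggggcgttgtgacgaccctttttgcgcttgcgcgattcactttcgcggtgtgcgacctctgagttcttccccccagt
Wdr43: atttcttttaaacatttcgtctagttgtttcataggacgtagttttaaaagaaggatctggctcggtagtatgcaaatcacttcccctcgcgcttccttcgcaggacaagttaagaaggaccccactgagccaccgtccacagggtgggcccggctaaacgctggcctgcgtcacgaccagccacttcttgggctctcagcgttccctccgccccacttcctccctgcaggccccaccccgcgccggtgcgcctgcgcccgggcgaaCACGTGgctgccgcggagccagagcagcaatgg
Tsr1: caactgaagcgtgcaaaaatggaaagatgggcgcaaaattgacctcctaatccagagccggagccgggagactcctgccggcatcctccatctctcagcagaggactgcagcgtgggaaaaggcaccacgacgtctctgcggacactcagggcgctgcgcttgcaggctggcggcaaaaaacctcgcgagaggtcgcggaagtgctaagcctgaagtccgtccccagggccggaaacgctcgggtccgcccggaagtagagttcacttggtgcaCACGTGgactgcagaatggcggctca
Mybbp1a: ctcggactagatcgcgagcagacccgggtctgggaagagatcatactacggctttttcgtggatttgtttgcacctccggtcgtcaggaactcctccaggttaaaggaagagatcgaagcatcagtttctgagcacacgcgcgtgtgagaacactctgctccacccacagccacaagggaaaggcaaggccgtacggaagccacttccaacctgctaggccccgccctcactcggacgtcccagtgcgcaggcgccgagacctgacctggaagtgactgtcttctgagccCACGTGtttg
Utp18: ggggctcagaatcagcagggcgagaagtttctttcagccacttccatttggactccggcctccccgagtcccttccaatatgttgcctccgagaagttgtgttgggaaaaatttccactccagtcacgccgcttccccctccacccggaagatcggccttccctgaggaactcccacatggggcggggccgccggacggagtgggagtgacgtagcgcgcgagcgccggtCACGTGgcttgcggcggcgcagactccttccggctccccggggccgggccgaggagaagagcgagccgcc

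RNA polymerase I and its partners moved unevenly. Of 6 members 2 rose, the catalytic subunit gene Polr1a and Polr1c, which encodes a subunit shared with RNA polymerase III. Signals are given here as the processed, dye-normalized brightness of the probe in arbitrary units, always control against BIO, with array 1 for replicate 1 and array 2 for replicate 2. The Polr1a signal was 3099 against 5091 on array 1 and 3565 against 5636 on array 2. Both BIO values thus exceeded both control values by a wide margin, and the log2 ratio was 0.66 ± 0.11 (moderated SE, n = 2 arrays, adjusted p = 0.00359). Its probe lies on chromosome 6 at 71929251 to 71929310 (mm9), and a further, dimmer Polr1a probe on another accession gave the same ratio of 0.66 and rose too.

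For Polr1c, the signals were 8198 against 13196 on array 1 and 8881 against 12224 on array 2. This gave a log2 ratio of 0.53 ± 0.11 (adjusted p = 0.0116). Polr1b, which encodes the other large subunit of the catalytic core, had 1454 against 1761 on array 1 and 1493 against 1830 on array 2. All Polr1b values with BIO were higher, but its log2 ratio of 0.24 ± 0.11 did not pass the test (adjusted p = 0.153, 95% interval -0.01 to 0.49). Polr1e, for a subunit of the initiation-related heterodimer, had 1614 against 1609 on array 1 and 1691 against 1529 on array 2, with a log2 ratio of -0.11 ± 0.11 (adjusted p = 0.540).

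Ubtf encodes UBF, which opens ribosomal DNA for transcription and helps to recruit the polymerase. On its brightest probe the signal was 48150 against 39674 on array 1 and 51806 against 34909 on array 2. Here both BIO values lay below both control values. The log2 ratio of -0.36 ± 0.14 missed the threshold (adjusted p = 0.0915). A second Ubtf probe on the same accession, 253 against 365 on array 1 and 291 against 396 on array 2, rose with a ratio of 0.38 (adjusted p = 0.0361). The direction of Ubtf therefore depends on the probe and is not settled by these arrays.

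Tcof1 encodes treacle, a nucleolar cofactor of UBF that is mutated in Treacher Collins syndrome. Its signals were 4112 against 4797 on array 1 and 4053 against 5897 on array 2. The ratio was 0.17 on one array and 0.55 on the other, with a mean of 0.36 ± 0.13 that did not pass (adjusted p = 0.0751). Its further probe showed the same difference between the arrays, with 0.17 and 0.53.

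The highest ratio of all members belonged to Gnl3, which encodes nucleostemin, a nucleolar GTP-binding protein abundant in stem and progenitor cells. The signal was 3270 against 5742 on array 1 and 3470 against 6173 on array 2. The groups were clearly apart, and the log2 ratio was 0.80 ± 0.11 (adjusted p = 0.00163), a 1.74-fold rise. Its probe lies on chromosome 14 at 31826877 to 31826936 (mm9). Among the other 5 genes for major nucleolar proteins Mybbp1a, for a MYB-binding protein that takes part in ribosomal RNA processing, rose as well, with 13331 against 19068 on array 1 and 15240 against 20884 on array 2. Its log2 ratio was 0.44 ± 0.11 (adjusted p = 0.0227).

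Npm1, for the histone chaperone nucleophosmin, shows how the choice of probe can matter. On the brightest probe its signal was 43718 against 66234 on array 1 and 63278 against 72209 on array 2. The arrays differed by more here than for any other member, and the log2 ratio of 0.46 ± 0.16 was not called (adjusted p = 0.0664). Of the 5 Npm1 probes 3 rose, with ratios of 0.67, 0.58 and 0.58, and the fifth gave 0.32. Npm1 has processed pseudogenes, so its probes may share signal with copies. The RNA-binding protein gene Ncl (nucleolin) and the small nucleolar ribonucleoprotein chaperone gene Nolc1 had ratios of 0.27 and 0.32, neither of which passed. Ddx21, for an RNA helicase of the nucleolus, was lowest in this group with 5079 against 5041 on array 1 and 5278 against 5559 on array 2, a ratio of 0.01 ± 0.11 (95% interval -0.25 to 0.27).

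All 4 members of the box C/D particle rose, with a median log2 ratio of 0.48. Fbl encodes fibrillarin, the methyltransferase of the particle, and its signal was 2571 against 3691 on array 1 and 2856 against 4566 on array 2. The log2 ratio was 0.57 ± 0.11 (adjusted p = 0.00920), on a probe at chromosome 7, 28964229 to 28964288 (mm9). For the core protein gene Nop58 the signals were 8503 against 12389 on array 1 and 9605 against 14502 on array 2, and the ratio was 0.52 ± 0.11 (adjusted p = 0.0117). Its partner Nop56 rose on all 3 probes, by 0.43 on the brightest. Rrp9, for a protein of the U3 particle that guides the earliest cleavages, had the lowest ratio of the group, with 1039 against 1409 on array 1 and 1038 against 1362 on array 2. That ratio was 0.36 on both arrays (adjusted p = 0.0435). With the processed signals 2 of the 4 genes passed, and with median centring 1.

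In the box H/ACA particle fewer members passed, although the difference between the particles was not tested. Of 4 members 1 rose, Dkc1, which encodes the pseudouridine synthase dyskerin. Dkc1 had 1669 against 2507 on array 1 and 1884 against 2447 on array 2, a log2 ratio of 0.44 ± 0.11 (adjusted p = 0.0245). The core protein genes Gar1, Nop10 and Nhp2 had ratios of 0.25, 0.14 and 0.09. For Gar1 both BIO signals, 7125 and 8362, lay above both control signals, 5892 and 6767, but its ratio did not pass limma's test (adjusted p = 0.135). Nhp2 was lowest, with 10428 against 11153 on array 1 and 10397 against 11657 on array 2 (95% interval of the ratio -0.17 to 0.36). Nop10 and Nhp2 changed sign between the arrays.

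In the small subunit processome 3 of 9 members rose, with a median ratio of 0.23. They were Utp15 and Wdr43 of the subcomplex that binds the start of the precursor, and Utp20, a large scaffold protein. Utp15 had 675 against 984 on array 1 and 705 against 980 on array 2, a log2 ratio of 0.45 ± 0.11 (adjusted p = 0.0199). Wdr43 had 3632 against 5290 on array 1 and 4011 against 4941 on array 2, a log2 ratio of 0.42 ± 0.11 (adjusted p = 0.0273). Both genes thus had separate groups, but the second Wdr43 probe, with 0.35, missed the threshold (adjusted p = 0.0508). Utp20 rose by 0.39.

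The remaining members of this complex did not pass. Nop14 and Noc4l, whose products bind each other, had ratios of 0.31 and 0.23. The scaffold genes Utp18 and Heatr1 had 0.22 and 0.06, and Imp4, for a partner of the U3 RNA, had 0.12. Imp3, for a U3-associated protein, was lowest, with 12227 against 12727 on array 1 and 12667 against 13646 on array 2, a ratio of 0.03 ± 0.11 (95% interval -0.22 to 0.28). Utp4, matched by its accession, gave 4378 against 5545 on array 1 and 4985 against 6220 on array 2. Its ratio of 0.30 ± 0.11 was higher with BIO on both arrays but was not called (adjusted p = 0.0821).

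Of the 4 factors that act later on the small subunit, only Tsr1 rose. This GTPase-like factor keeps the immature subunit from engaging in translation. Its signal was 3197 against 5658 on array 1 and 3834 against 5030 on array 2, with log2 ratios of 0.77 and 0.38. The mean log2 ratio was 0.57 ± 0.13 (adjusted p = 0.0140), and its other probe rose by 0.63. Nob1, the endonuclease gene of the last cleavage, had 3437 against 4590 on array 1 and 3537 against 4360 on array 2, with a ratio of 0.32 ± 0.11 that narrowly missed the threshold (adjusted p = 0.0657). Rrp12, for an export factor, had 0.04. Ltv1, for an assembly factor, was lowest with 6878 against 6238 on array 1 and 7729 against 7687 on array 2, a ratio of -0.10 ± 0.11.

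Of the 14 genes for factors of the large subunit 4 rose, with a median ratio of 0.24. The highest was Nop2, an RNA methyltransferase gene and proliferation marker, with 5861 against 8383 on array 1 and 6224 against 8998 on array 2. Its log2 ratio was 0.48 ± 0.11 (adjusted p = 0.0144). Next was Grwd1, a WD-repeat chaperone gene for a ribosomal protein, with 1437 against 2224 on array 1 and 1630 against 2091 on array 2. The ratio was 0.45 ± 0.13 (adjusted p = 0.0364), and both of its probes rose. The nucleolar protein gene Rrp1b and Wdr12 rose by 0.39 and 0.37, the latter on 1 of 2 probes and just inside the threshold (adjusted p = 0.0497). Just outside lay the helicase gene Ddx18, with a ratio of 0.32 (adjusted p = 0.0648).

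The genes of the PeBoW complex, which matures the large subunit, did not all pass, and the differences between them were not tested. It is formed by the products of Pes1, Bop1 and Wdr12, of which Wdr12 alone rose on its brightest probe. Bop1 was the lowest of the large subunit genes, with 2165 against 2075 on array 1 and 2453 against 2067 on array 2, a ratio of -0.20 ± 0.11 (adjusted p = 0.227). Pes1 had 11491 against 10682 on array 1 and 12207 against 12456 on array 2, a ratio of -0.09 ± 0.12. Its dimmer probe, 777 against 1210 on array 1 and 914 against 1204 on array 2, rose by 0.44 (adjusted p = 0.0246), so Pes1 is uncertain like Ubtf. Rrs1, which helps to bring a further ribosomal RNA into the subunit, and the assembly factor gene Noc3l had ratios of -0.14 and -0.09, and the assembly factor genes Noc2l, Brix1, Nop16, Ebna1bp2 and Wdr74 lay between 0.11 and 0.30. None of these passed the test.

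Further genes of the same pathway, listed by role, had a median between that of the members and that of all genes. Of 122 other ribosome biogenesis genes tested, 20 rose (16.4%, against 9.13% of all genes) and 2 fell, with a median of 0.16. This share depended on the processing. With the processed signals 9 rose (7.38%, against 7.17% of all genes), and with median centring 1 rose (0.82%, against 3.83%). Under the other alternatives the share stayed above that of all genes. It was 16.3% without the filter on dim probes (all genes 5.99%) and 17.2% with a stricter filter (all genes 9.63%). The mean of a gene's probes gave 23% (all genes 10.4%), and so did the deposited scores (all genes 8.94%). An offset of 16 in place of 50 left 13 of 122, against 7.85% of all genes. Among the other genes of RNA polymerase I, 3 of 14 rose (21.4%) and 1 fell. Taf1d, for a subunit of the selectivity factor that places the polymerase on its promoter, had 2525 against 4337 on array 1 and 2714 against 5052 on array 2, a log2 ratio of 0.82 (adjusted p = 0.00126). Cd3eap, the older name of the polymerase subunit gene Polr1g, and Taf1a rose by 0.66 and 0.44. Polr2l, whose product is shared by all nuclear RNA polymerases, fell by 0.39 on the log2 scale.

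By role, 7 of 40 other small subunit genes rose (17.5%, against 9.13% of all genes). The ratios of the 40 ran from Ngdn at 0.45 down to Nol10 at -0.39, which was not called. Of 45 other large subunit genes 6 rose (13.3%), from Ppan at 0.59 to Rpf1 at -0.25, which was not called. Among 9 genes for the assembly of small nucleolar particles 1 rose (11.1%), Shq1 at 0.59, and Naf1 was lowest at -0.16. Of 14 genes of the RNA exosome 3 rose (21.4%), led by the nuclease gene Dis3 at 0.51, and Exosc2 fell with a ratio of -0.39. In the RNA polymerase III list 2 of 21 rose, Gtf3c4 (0.52) and Polr3g (0.36). This share of 9.52% is near that of all genes. Maf1, the repressor of RNA polymerase III, fell from 9721 to 6251 in replicate 1 and from 10533 to 5221 in replicate 2, a log2 ratio of -0.86 (adjusted p = 0.00222).

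The genes of the ribosomal proteins themselves differed between the arrays. Of 77 genes tested 3 rose (3.90%, against 9.13% of all genes) and 0 fell. The median was 0.17, but it was 0.33 in replicate 1 and 0.04 in replicate 2. Rps20 was highest at 0.41 and Rpl27 lowest at -0.16. With median centring in place of loess 16 of these genes passed upwards (3.83% of all genes did). With the processed signals 0 passed (7.17% of all genes). Ribosomal protein genes have many processed pseudogenes, and their probes may share signal with these copies.

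**Figure D4:**
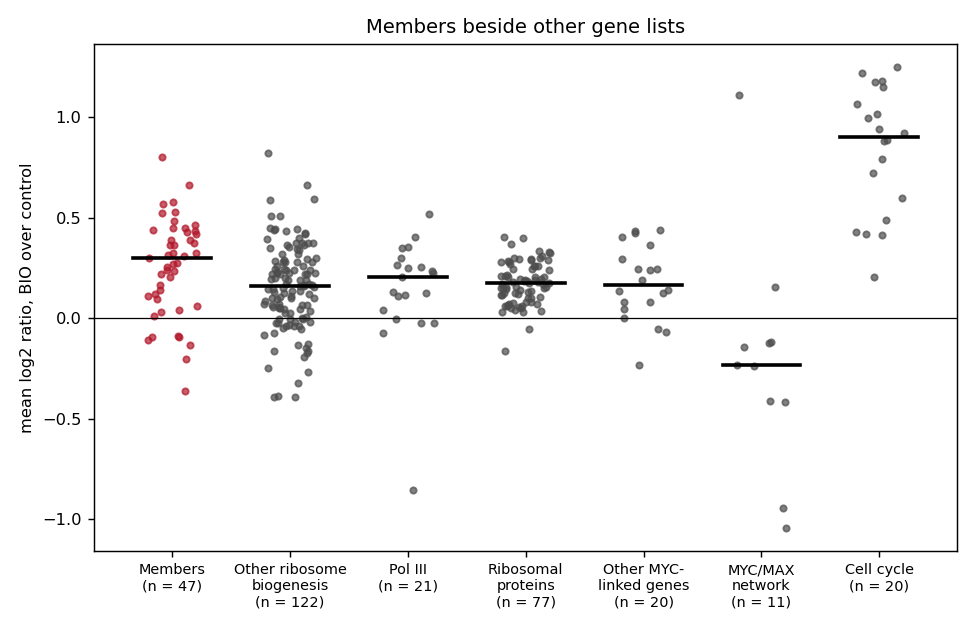
Each dot is the mean log2 ratio of BIO over control of 1 gene, and the black line is the median of the list. The median is 0.30 for the members, 0.16 for the other ribosome biogenesis genes, 0.20 for the RNA polymerase III list and 0.17 for the ribosomal proteins, the median of the MYC/MAX network is below 0 (-0.23) and that of the cell cycle genes is the highest drawn (0.90).

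Since the members are linked to MYC, the genes of the MYC/MAX network were examined beside them. Myc itself fell, from 3730 in control to 2149 with BIO in replicate 1 and from 3969 to 1874 in replicate 2, a log2 ratio of -0.95 ± 0.11 (adjusted p = 0.000872). Mycn fell as well, from 10151 to 7319 and from 10757 to 8744, with a ratio of -0.41 (adjusted p = 0.0375). The Myc and Mycn messages were lower in the same RNA in which most members were higher. MYC protein was not measured on these arrays, and a part of MYC in the shift of the members was not tested.

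The MAX-binding repressors moved in both directions. Mxd4 fell with a ratio of -1.04 and Mnt with -0.42, while Mxd3, a repressor made in S phase, rose from 247 to 632 in replicate 1 and from 313 to 718 in replicate 2, a ratio of 1.11 (adjusted p = 0.000332). Max, the common partner, had -0.15, and Mycl, Mxd1, Mxi1, Mlx and Mga had ratios between -0.24 and 0.15. These 6 did not pass. In a list of 20 other genes linked to MYC 4 rose (20%, against 9.13% of all genes) and 0 fell, with a median of 0.16. Ranbp1 was highest at 0.44 and Ccnd2 lowest at -0.24.

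Other changes in the tissue accompanied the shift of the members. Of 20 cell cycle genes 19 rose, with a median of 0.90, and Mcm7 at 0.20 was the exception. Of 8 endothelial markers all fell, with a median of -2.07, and their summed signal was 28598 and 34430 in the control samples and 5317 and 9919 with BIO. Of 10 UM markers 8 fell (median -0.76, summed signal 281818 and 306979 in control, 161976 and 187681 with BIO). Of 10 UE markers 6 fell (median -0.66, 97277 and 98982 in control, 59111 and 69587 with BIO). Of the macrophage markers 3 of 6 fell, of the erythroid markers 2 of 6 and of the neural markers 4 of 6, and 0 of these rose. Among all genes tested 9.13% rose and 14.8% fell. Each of these markers was well above background in at least 1 channel. The part of cell composition and of proliferation in the shift of the members was not tested.

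The members were also put through a rule of intensity and fold that the study states for other arrays. With an intensity of at least 100 and a 2-fold change on both arrays, 0 members passed, against 0.753% of all genes upwards and 1.47% downwards. With 1.5-fold 2 members passed, Gnl3 and Polr1a, against 2.45% of all genes upwards.

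How many members passed limma's test depended on how the ratio was made. With the processed signals in place of normexp and loess 7 members rose (14.9%), against 7.17% of all genes, and with median centring 5 rose (10.6%), against 3.83%. The 7 were all among the 17, whereas the 5 were 4 of the 17 and Npm1. An offset of 16 in place of 50 left 12 (25.5%), against 7.85%. Gnl3, Polr1a, Polr1c and Nop58 rose under each of these. The 17 genes had mean ratios between 0.27 and 0.82 under all alternatives that use both arrays, and ratios between 0.26 and 0.87 on the single arrays.

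**Figure D5:**
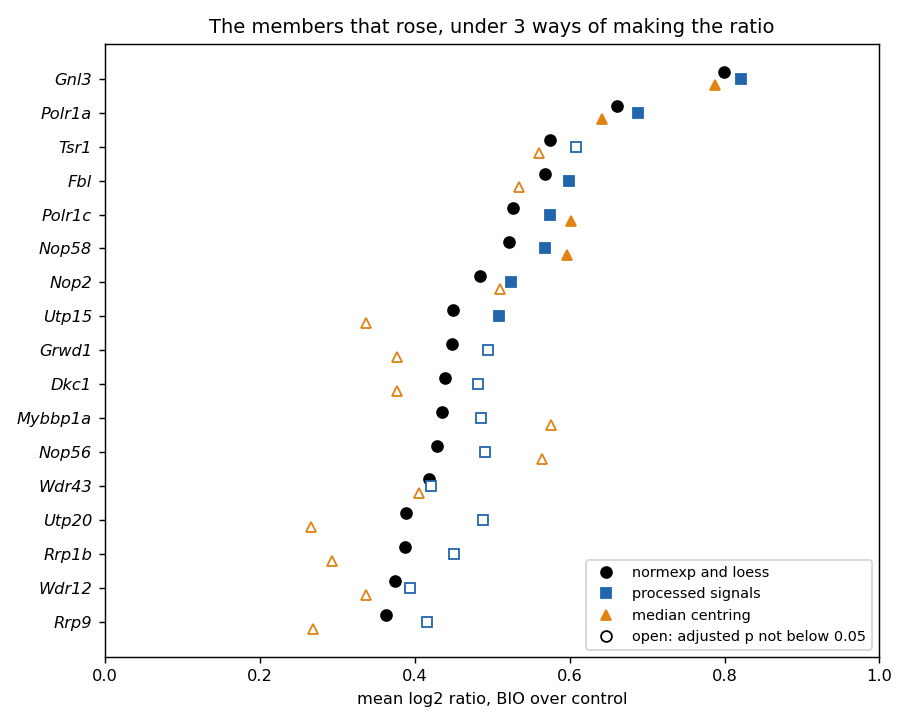
For the 17 members that rose, the mean log2 ratio of BIO over control is shown as made by normexp and loess (circles), from the processed signals (squares) and by median centring (triangles), filled where the adjusted p was below 0.05. The ratios stay between 0.27 and 0.82, while only Gnl3, Polr1a, Polr1c and Nop58 are filled in all 3.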

How the data were processed

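RNA of 2 pairs of explant pools was measured on 2 two-color Agilent arrays. The authors scanned them and quantified the spots with Agilent Feature Extraction 10.7.3.1, per the labels. The deposited scanner files hold mean and background intensity per spot, not normalized, and processed signal intensities, which the software had background-subtracted and dye-normalized. The authors also deposited a table with 1 score per probe and array. Its making is not stated. It follows a signed fold of BIO over control, both column medians are 1, and its exact centring stayed unknown. Its Pearson correlation with the processed log2 ratios was 0.912 and 0.939 over the 28824 probes tested. Over all probes, dim ones included, it was 0.675 and 0.760.

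Intensities were corrected by normexp with an offset of 50 and normalized within each array by loess in limma 3.58.1 (R 4.3.3). The 4 spots of a probe were averaged without outliers (3.49% and 3.16%), and 0 spots were saturated. Spots well above background made up 70.1% to 80.9% of a channel. Probes well above background in the same group on both arrays were tested, 28824 in all. The swapped array was turned, and limma's moderated test (lmFit, eBayes, two-sided) asked whether the mean ratio differed from 0, with Benjamini-Hochberg adjustment over these probes at 0.05. With 2 arrays, their number limits the precision (median standard error 0.111, prior degrees of freedom 7.14). The test was checked on simulated data. Signals in the text are processed signals, and probe coordinates are mm9 per the file headers.

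Members, lists and tests were chosen with earlier results of these data known. Signals on both arrays and mean ratios are given for all RNA polymerase I members. The same holds for the 2 highest and the lowest gene of each other role. Other members were named for opposite signs, disagreeing probes or nearness to the threshold. The Ubtf, Npm1 and Pes1 probe values follow from that rule. Alternatives were the processed signals, median centring, an offset of 16, other filters, gene means, the score table and other fold limits, and, added after seeing the data, any probe of a member.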

Additional observations from a re-analysis of the deposited data

How the results depend on the processing

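In place of 17 members, 7 rose with the processed signals (all 7 among the 17), 5 with median centring (4 among the 17) and 10 with the deposited score table (4 among the 17, 6 others). The other alternatives gave 12 to 20, the highest of these counting any probe of a member, an alternative chosen after seeing the data. With the deposited scores the members that rose made up 21.3%, against 8.94% of all genes. Without the filter on dim probes they made up 29.8% (all genes 5.99%). The stricter filter gave 36.2% (all genes 9.63%) and gene means gave 40.4% (all genes 10.4%). The number that fell was 0 throughout except for 1 with the score table, Rrs1. The median ratio of 0.30 was 0.33 with processed signals, 0.27 with median centring, 0.28 with gene means and 0.32 with the score table, and 0.27 to 0.29 on single arrays, which allow no test. With median centring it was 0.09 in replicate 1 and 0.44 in replicate 2, and the standard error of the genes that rose had a median of 0.216 in place of 0.111. With a fold limit of 1.5 in place of 2 the count of members changed from 0 to 2. Over 329 comparisons of a member with an alternative, 275 kept their side of the threshold, 44 lost the call, 10 gained it and 0 turned direction with a call. The 4 genes Gnl3, Polr1a, Polr1c and Nop58 kept their call under all alternatives except the score table, where Nop58 alone did. The cause of the lost calls was not tested. Box C/D genes that rose numbered 4, 2 with the processed signals, 1 with median centring, 3 with an offset of 16 and 1 with the score table. The other filters and gene means kept all 4. Of the other ribosome biogenesis genes, 20 rose (16.4%, all genes 9.13%), 9 with the processed signals (7.38%, all genes 7.17%) and 1 with median centring (0.82%, all genes 3.83%). The remaining alternatives kept their share above that of all genes, from 13 of 122 with an offset of 16 (all genes 7.85%) to 23% with gene means (all genes 10.4%). The test was itself paired, since each ratio sets BIO against the control RNA of the same array, and a separate block for the replicate could not be added. A dye term would leave no residual degree of freedom, so dye and array were not separated.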
